A study of Ovis aries with 18 samples.

Results

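The sperm methylation data were examined in the first 5 Mb of sheep chromosomes 4 to 26, the acrocentric chromosomes, whose centromere lies at one end. These 23 ends held 93316 of the 1850625 listed CpG cytosines. They were set by position alone and compared with the interior of the same chromosomes, which held 994110 cytosines, and with the last 5 Mb before the highest listed position, which held 281516. Sperm came from 6 Polypay rams. The 3 control rams (Ram410, Ram423 and Ram444) received a basal diet, and the 3 methionine rams (Ram424, Ram498 and Ram511) received that diet with 1.5 g of rumen-protected methionine, a 0.22% addition. Semen was collected after supplementation had ended, and the sperm were treated with a somatic cell lysis buffer. Methylation was measured by reduced representation bisulfite sequencing (RRBS), which reads cytosines in CpG-rich restriction fragments. The level of a cytosine in a ram was the share of its reads that were methylated, and the level of a region was the mean over its cytosines. The median coverage in the ends was 21 to 38 reads per ram. Whether the sperm were free of other cells was not checked, since gene starts of the build used were not at hand.

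The first bases of an acrocentric assembly border the satellite repeats of the centromere, where copies of related sequence are hard to assemble. Mammalian sperm DNA is in general methylated outside CpG islands, the dense CpG clusters that are mostly unmethylated. RRBS samples such islands heavily, so a mean level over listed cytosines depends on how many lie in dense clusters.

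The direction of the chromosomes was compared between assemblies by the order of genes. No centromere position was used, so a shared order shows a shared direction and not where the centromere lies. Genes that the study's annotation placed near sites of the files' build, Oar_rambouillet_v1.0, were ordered along each chromosome and set against their order in the later assembly ARS-UI_Ramb_v3.0. On 13 chromosomes all pairs of such genes kept their order, 61 pairs in all, but 7 of the 13 (chromosomes 6, 8, 10, 12, 13, 14 and 21) rested on 1 pair. On chromosome 11 all 10 pairs ran in the opposite order, with PRKCA, RGS9 and KCNJ16 at the start in the files and at the end in the later assembly. The remaining 9 chromosomes had too few genes to be judged. The first 5 Mb of chromosome 11 may therefore not be the end near the centromere. It held 9231 of the 93316 cytosines, and the results are given with and without it.

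The ends were more methylated than the interior in every ram. Over all 23 ends the level was 14.8% in Ram410, 15.6% in Ram423 and 16.0% in Ram444 of the control group. It was 16.1% in Ram424, 14.1% in Ram498 and 14.4% in Ram511 of the methionine group. The 2 diets overlapped, and the highest value was in a methionine ram. The interior had a level of 10.4% ± 0.49 (SD, n = 6 rams) and the ends 15.2% ± 0.84. The difference within a ram was 4.76 ± 0.36 points, and was positive in 6 of 6 rams (exact two-sided sign-flip permutation test, p = 0.03125, the smallest that 6 rams allow). Sign-flip tests of this kind take the regions as fixed and ask only whether the rams agree. They cannot show that such ends as a class differ from other stretches of chromosome. Without chromosome 11 the level of the ends was 14.3% ± 0.77 and the difference was 3.77 ± 0.29 points (exact sign-flip permutation test, p = 0.03125). Among cytosines with at least 20 reads in every ram, 32.3% of those in the ends, the levels were lower and the difference was 1.80 ± 0.27 points.

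The ends were less methylated than the last 5 Mb of the same chromosomes. The last 5 Mb had a level of 21.7% ± 1.1 (SD, n = 6). The difference was -6.47 ± 0.34 points, with the same direction in 6 of 6 rams (exact sign-flip permutation test, p = 0.03125). Without chromosome 11 it was -7.35 ± 0.42 points. The 20-read minimum left a difference of -0.60 ± 0.27 points. When reads rather than cytosines were weighted equally, the difference was -0.17 ± 1.6 points and no longer passed (exact sign-flip permutation test, p = 0.78125).

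The ends also held more cytosines for their length than the interior. There were 811 listed cytosines per Mb in the ends, 615 in the interior and 2448 in the last 5 Mb. Of the cytosines in the ends, 77.3% had a mean level below 10%, 13.5% lay between 10% and 90%, and 9.28% were above 90%. The interior had 85.7%, 7.33% and 6.97% in these classes. The ends had a larger share at intermediate levels and a larger share at high levels. The spread between rams at a cytosine averaged 3.31 points (SD) in the ends, 2.41 in the interior and 4.04 in the last 5 Mb. Among cytosines of intermediate level it was 13.5 points in the ends, 13.6 in the interior and 14.7 in the last 5 Mb.

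The chromosomes contributed unequally. An end held from 253 cytosines on chromosome 4 to 20590 on chromosome 24, with a median of 2364. In 19 of the 23 the end was above its own interior in all 6 rams, and in 4 it was below in all 6. Ranked by level among the 5-Mb stretches of its chromosome, the end was among the 3 highest in 5 of the 23. It was above the middle rank in 18 of the 23. The mean of the 23 chromosome differences was 4.78 ± 0.52 points (SD, n = 6 rams).

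The highest end was that of chromosome 10, at 35.6% ± 3.8 (SD, n = 6), against 10.3% ± 0.47 in its interior. Its control rams had 38.8%, 39.2% and 36.3%, and its methionine rams 36.3%, 28.7% and 34.5%. Ram498 was the lowest there, and the 2 diets overlapped narrowly. The end of chromosome 11 followed at 23% ± 1.6, against 9.01% ± 0.45 in its interior. Chromosome 26 came next at 19% ± 0.87, against 14.2% ± 0.87. Chromosomes 10 and 11 also had the largest positive differences from the interior, at 25.4 ± 3.6 and 14.0 ± 1.1 points, followed by chromosome 23 at 8.0 ± 0.64.

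The lowest ends were those of chromosome 18, at 9.28% ± 0.55 (SD, n = 6), chromosome 5, at 9.78% ± 0.55, and chromosome 25, at 10.3% ± 0.50. The differences below 0 were in chromosome 19, at -1.97 ± 0.52 points, chromosome 18, at -1.50 ± 0.24, chromosome 17, at -0.79 ± 0.47, and chromosome 25, at -0.46 ± 0.13. Chromosomes 10, 11 and 14 were the 3 whose first 5 Mb exceeded the last 5 Mb in all 6 rams.

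**Figure D1:**
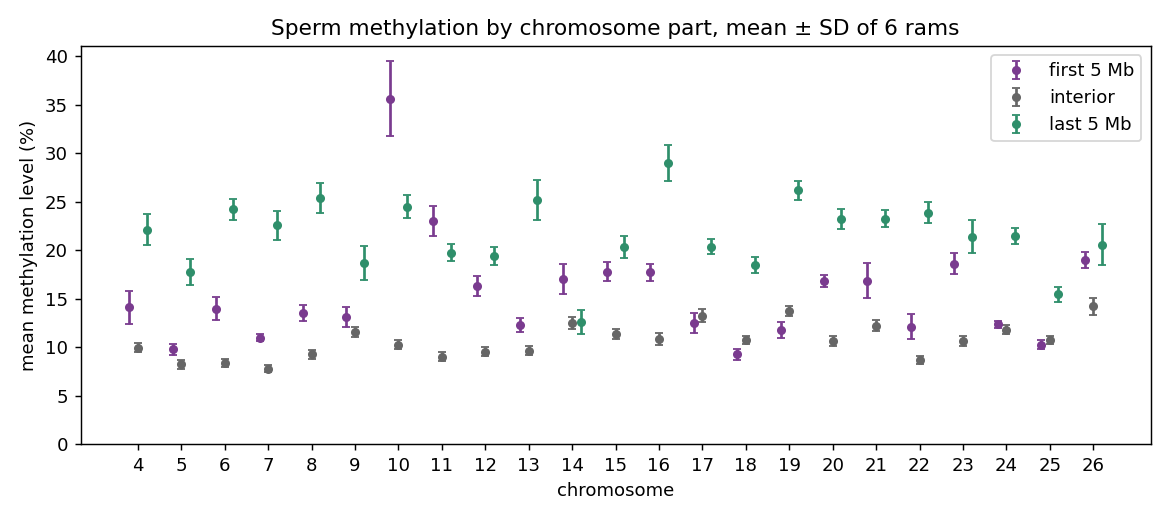
Mean methylation level (%) of the first 5 Mb, the interior and the last 5 Mb of chromosomes 4 to 26. Points are means and bars the SD of 6 rams. The first 5 Mb of chromosome 10 stands highest of all ends at 35.6%, and 4 ends lie below their interior.

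Over all listed cytosines the level was highest in the first bases and lower from 10 Mb on, but the chromosomes did not share a steady decline. Within the first 0.1 Mb it was 27.5% ± 1.8 (SD, n = 6) over 2086 cytosines from 19 chromosomes. It was 18.4% ± 1.3 from 0.1 to 0.5 Mb and 16.3% ± 0.78 from 0.5 to 1 Mb. From 4 to 5 Mb it was 13.9% ± 0.83, and from 15 to 20 Mb it was 10.5% ± 0.50. There was no step at 5 Mb: the level was 15.7% ± 0.62 from 6 to 8 Mb and 14% ± 0.65 from 8 to 10 Mb, beside 14% ± 0.85 from 2 to 3 Mb. Without chromosome 11 the first 0.1 Mb had 30.2% ± 2.0 and the stretch from 4 to 5 Mb 13.1% ± 0.73. There the level from 6 to 8 Mb, 16.6% ± 0.66, was above that from 0.5 to 1 Mb, 15.8% ± 0.70. The median over chromosomes did not fall steadily, with 28.4% in the first 0.1 Mb, 11.8% from 0.1 to 0.5 Mb, 17.9% from 0.5 to 1 Mb, 19.5% from 4 to 5 Mb and 16.5% from 8 to 10 Mb. These distances were described and not tested.

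**Figure D2:**
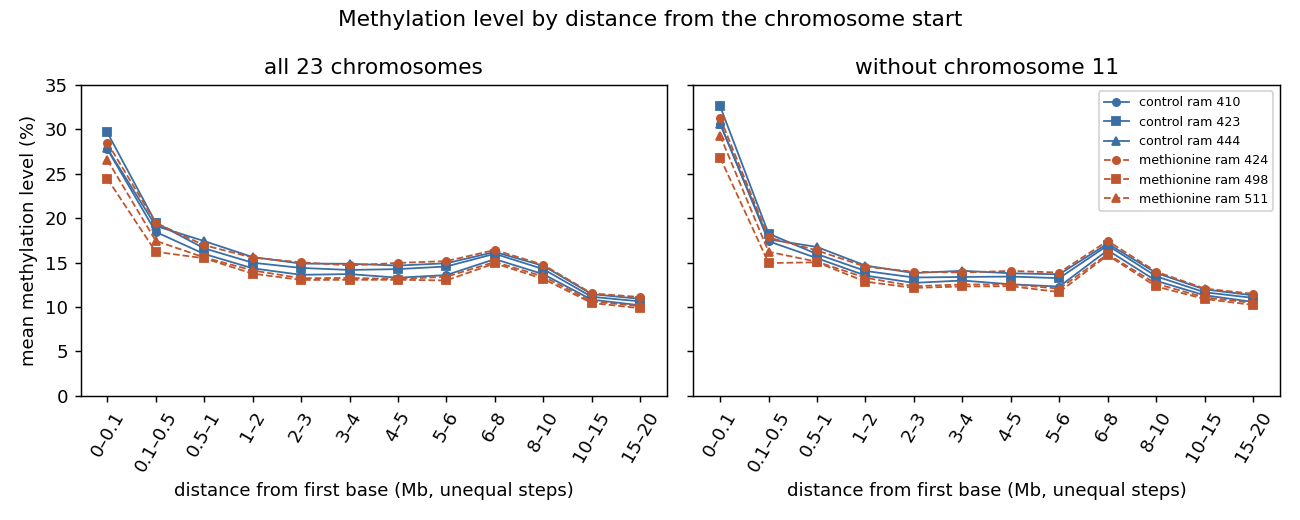
Mean methylation level (%) against the distance from the first base (Mb, in unequal steps), with a line for each ram, for all 23 chromosomes and without chromosome 11. All 6 rams start between 24.5% and 29.6% in the first 0.1 Mb of the 23 chromosomes and lie between 9.86% and 11.1% from 15 to 20 Mb.

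Cytosines of intermediate level prevailed in the first 0.1 Mb. There, 72.3% of cytosines had an intermediate level and 2.16% were above 90%. It exceeded the interior of its chromosome in 18 of the 19 chromosomes with listed cytosines. It was above the rest of its own end in 16 of the 19 and below it on chromosomes 11 (9.37% and 23.4%), 16 (0.31% and 17.8%, from 20 cytosines) and 23 (13.2% and 18.7%). On chromosome 15 it held 409 cytosines at 28.4% ± 1.6 (SD, n = 6), while the rest of that end had 12.6% ± 0.85. On chromosome 10 the values were 39.6% ± 4.2 and 35% ± 3.8. Leaving the first 0.1 Mb out of all ends gave a difference from the interior of 4.48 ± 0.35 points.

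The ends were compared with the interior at equal local density, counted as the listed cytosines within 100 bp of each cytosine, itself included. At 6 to 10 cytosines the ends had 31.8% ± 1.7 and the interior 18.9% ± 1.0 (SD, n = 6). At 11 to 20 the levels were 8.63% ± 1.0 and 4.41% ± 0.51. At 21 to 40 they were 2.14% ± 0.36 and 1.37% ± 0.18. Over 40 they were 0.82% ± 0.14 and 0.75% ± 0.079, with the ends above in 5 of 6 rams. The order was the opposite for cytosines with 1 or 2 in reach, at 68.5% ± 1.6 in the ends and 71.6% ± 1.2 in the interior. Without chromosome 11 the differences were 11.7 ± 0.53 points at 6 to 10 and -4.71 ± 0.63 at 1 or 2. Over 40 the difference was then 0.0066 ± 0.042 points, positive in 3 of 6 rams. Weighting the classes as in the ends, with chromosome 11 kept, left a difference of 3.84 ± 0.35 points in 6 of 6 rams (exact sign-flip permutation test, p = 0.03125).

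**Figure D3:**
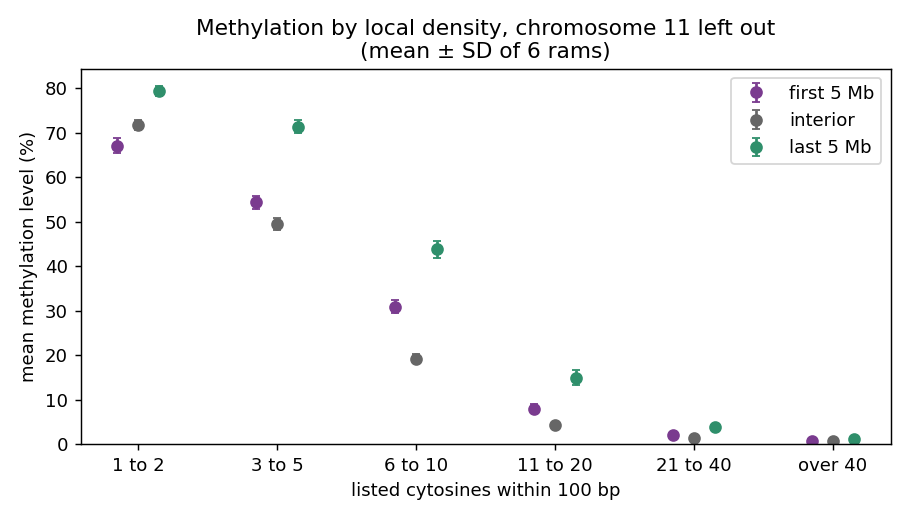
Mean methylation level (%) by the number of listed cytosines within 100 bp (the cytosine itself included), for the first 5 Mb, the interior and the last 5 Mb, with chromosome 11 left out. Points are means and bars the SD of 6 rams. At 6 to 10 cytosines the first 5 Mb (30.9%) lies between the interior (19.2%) and the last 5 Mb (43.8%).

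Very deep cytosines were found in the ends. Those with a mean coverage above 306 reads, the deepest 0.1% of all cytosines, made up 119 of the cytosines in the ends, or 0.128%. They were 0.00634% of the interior and 0 of the 281516 cytosines of the last 5 Mb. On unplaced contigs they were 10.8%. In the ends they carried 11.2% of the reads. Of the 119, 62 lay in the first 0.1 Mb, and none lay on chromosome 11. Copies of a repeat that share 1 assembled place cannot be told apart here from any other source of depth.

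These cytosines formed 10 clusters on 7 chromosomes. The deepest, 26 cytosines of chromosome 14 from 407564 to 410869, had a mean coverage of 8781 reads. Its level was 68.1%, 69.5% and 57.5% in the controls Ram410, Ram423 and Ram444, and 65.3%, 29.5% and 54.1% in the methionine rams Ram424, Ram498 and Ram511. Ram498 stood far below the others, and the diets overlapped. In the first bases of chromosome 10, from 9743 to 15941, the controls had 56.1%, 60.5% and 55.1% and the methionine rams 55.9%, 38.4% and 51.7%. Ram498 was the lowest ram in 6 of the 10 clusters. Its pooled reads over all ends were 8.01% methylated, against 21.7% to 24.1% in Ram410, Ram423, Ram444 and Ram424, and it had the highest coverage. Ram511, second in coverage, had 12.4%. The same order held outside the ends and without deep cytosines: Ram498 had 4.62% in the interior, against 11.6% to 12.5% in those 4 rams, and 9.6% in the end of chromosome 11, against 22.5% to 25%. The part of depth in these levels was not tested.

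**Figure D4:**
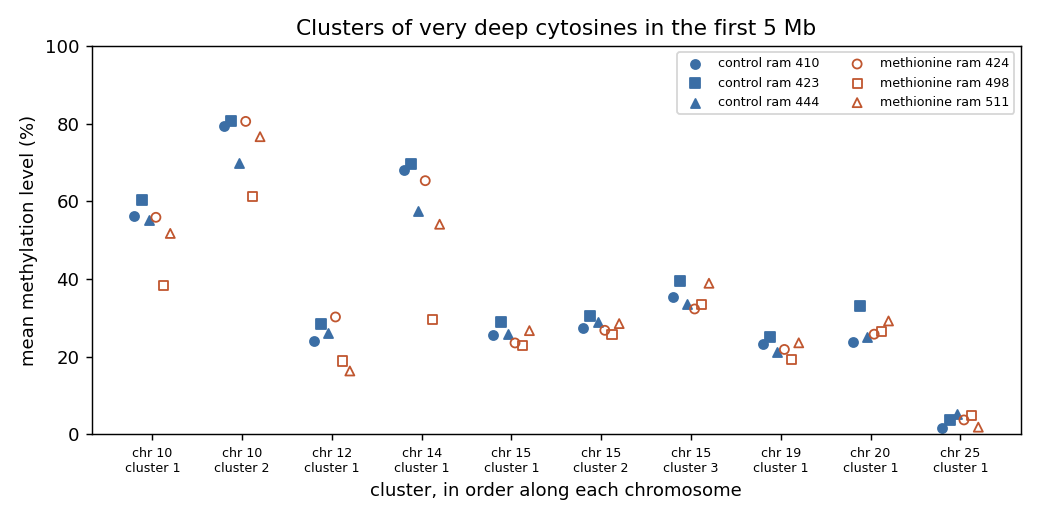
Mean methylation level (%) of the 10 clusters of very deep cytosines in the first 5 Mb, with a point for each ram. Ram498 is the lowest in 6 clusters, and 6 clusters have a mean between 20% and 40%.

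The level of the ends did not pass the test between diets. Controls had 15.5% ± 0.61 and methionine rams 14.9% ± 1.1 (SD, n = 3 each). The difference of -0.63 points did not pass an exact two-sided permutation test (p = 0.5, where 3 against 3 rams allow no less than 0.1). It was -1.23 points without Ram424, -0.96 without Ram410, -0.42 without Ram511, -0.36 without Ram444 and -0.24 without Ram498. By pooled reads it was -8.05 points (exact permutation test, p = 0.3). The ends-minus-interior difference was 0.36 points smaller with methionine (difference -0.36, exact permutation test, p = 0.3). The mean was lower with methionine in all 23 ends, but in 0 of them did the rams of the diets separate. Over the genome, 93.8% of 5-Mb bins had the same direction. By limma with Benjamini-Hochberg adjustment, 0 of 565 bins passed (0% called), and 12 had an unadjusted p under 0.05. In the ends these were 2, on chromosomes 10 and 4. Ram424 bore on this count, since without it 91 of the 565 bins passed, among them 7 of the 23 ends (chromosomes 4, 6, 9, 10, 17, 21 and 22). Among bins with at least 500 cytosines 3 passed over the genome, and the end of chromosome 10 was 1 of them (limma, adjusted p = 0.0183).

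At single cytosines, 30 in the ends were differentially methylated (DMCs), 27 lower and 3 higher with methionine. A DMC needed q under 0.01, Benjamini-Hochberg adjusted over the genome, and pooled levels over 20 points apart. Of all cytosines 0.0184% were called (0.0157% as decreases), against 0.0321% in the ends, 0.0128% in the interior and 0.0426% (120 DMCs) in the last 5 Mb. Chromosome 11 held 18 of the 30. Without it the ends had 12 DMCs, or 0.0143%, near the share of all cytosines. Among cytosines with a mean level of at least 10%, the share was 0.0662% in the ends without chromosome 11 and 0.0886% in the interior without it. The count rested on the chi-square form of the test. With an F test 0 cytosines passed over the whole genome, where the smallest q was 0.97. By the F test 504 of the 93316 cytosines in the ends had an unadjusted p under 0.05, and 6922 of all 1850625. With the chi-square form and without Ram424 the count was 89 of 1424 over all cytosines. Without Ram410 it was 66 of 854, without Ram423 it was 52 of 523 and without Ram444 it was 47 of 643.

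The largest decreases were on chromosomes 11, 10, 9 and 14. At position 1160891 of chromosome 11 (minus strand) the controls had 100%, 100% and 94.4% and the methionine rams 40%, 40% and 0%. The pooled difference was -69.3 points (q = 0.000462), and the other strand of the site, which was not called, differed by -54.3 points. At position 4946172 of that chromosome (plus strand) the controls had 97.0% to 100% and the methionine rams 50%, 9.09% and 31.8%, while the 2 neighbours within 50 bp differed by -0.63 points. At position 3789711 of chromosome 10 (minus strand) the controls had 83.3%, 94.9% and 92.6% and the methionine rams 38.1%, 47.8% and 23.1%. This site lay among 3 DMCs, and its 4 neighbours differed by -43.7 points.

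At position 646250 of chromosome 9 (plus strand) the controls had 96.9%, 96.9% and 100% and the methionine rams 55.6%, 46.2% and 0%. At position 1659448 of chromosome 11 (plus strand) the methionine rams had 31.8%, 40% and 50%, and the controls at least 90.5%. At position 709296 of chromosome 14 (minus strand) the controls had 76.9%, 58.8% and 93.8% and the methionine rams 20%, 15% and 14.3%, and the 3 neighbours differed by -52.0 points.

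At none of the 3 increases did listed neighbours within 50 bp move with the site. At position 3487182 of chromosome 11 (plus strand) the controls had 9.09%, 2.78% and 0% and the methionine rams 90.5%, 63.6% and 96.7%, a pooled difference of 85.7 points. It had no listed neighbour within 50 bp. At position 934292 of chromosome 16 (minus strand), in an intron of SLIT3, a secreted guidance ligand of Robo receptors, the controls had 0% and the methionine rams 47.6%, 80.0% and 62.5%. Its 7 neighbours differed by 0.083 points. At position 1277125 of chromosome 11 (minus strand), between genes, the controls had 0%, 0% and 3.03% and the methionine rams 36.8%, 36.4% and 42.1%, and its 3 neighbours differed by -0.57 points.

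Of the 30 DMCs, 11 were in the study's own list of differentially methylated sites, whose gene names were the annotation used here. Of these, 8 lay in or within 10 kb of a gene and 3 between genes. The other 19 were absent from the study's list and so could not be placed. Those near genes other than SLIT3 are named after their values were seen. In introns of PRKCA, a protein kinase C, position 490272 of chromosome 11 (minus strand) had 100% in every control and 45.5%, 40% and 60.7% with methionine. The other strand of that site differed by -50.5 points, while its 10 neighbours within 50 bp differed by -0.88 points. In a coding exon of ADNP2, position 592007 of chromosome 23 (minus strand) had 53.8%, 73.1% and 66.7% in controls and 34.4%, 26.9% and 22.5% with methionine. RGS9, a regulator of G-protein signalling, had 2 annotated DMCs within 10 kb. KCNJ16, a potassium channel, had 1. Coverage at the 30 DMCs was 10 to 54 reads per ram, and a level from 10 reads moves in steps of 10 points.

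Of the 27 DMCs with other listed cytosines within 50 bp, 11 had neighbours that differed by under 5 points in the mean, and 11 had neighbours that moved the same way by over 20 points. Most of the latter were DMCs that counted as neighbours of each other. They lay at 3789675 to 3789711 of chromosome 10, and at 1308727 to 1308787 and 2730870 to 2730889 of chromosome 11. The neighbours of position 709296 of chromosome 14 and 592007 of chromosome 23 included no DMC. In 19 of the 27 decreases the controls were above 90%, and in 14 of those the methionine rams averaged 40% to 70%. The rams of both diets did not overlap at any of the 30, which the call itself favours.

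**Figure D5:**
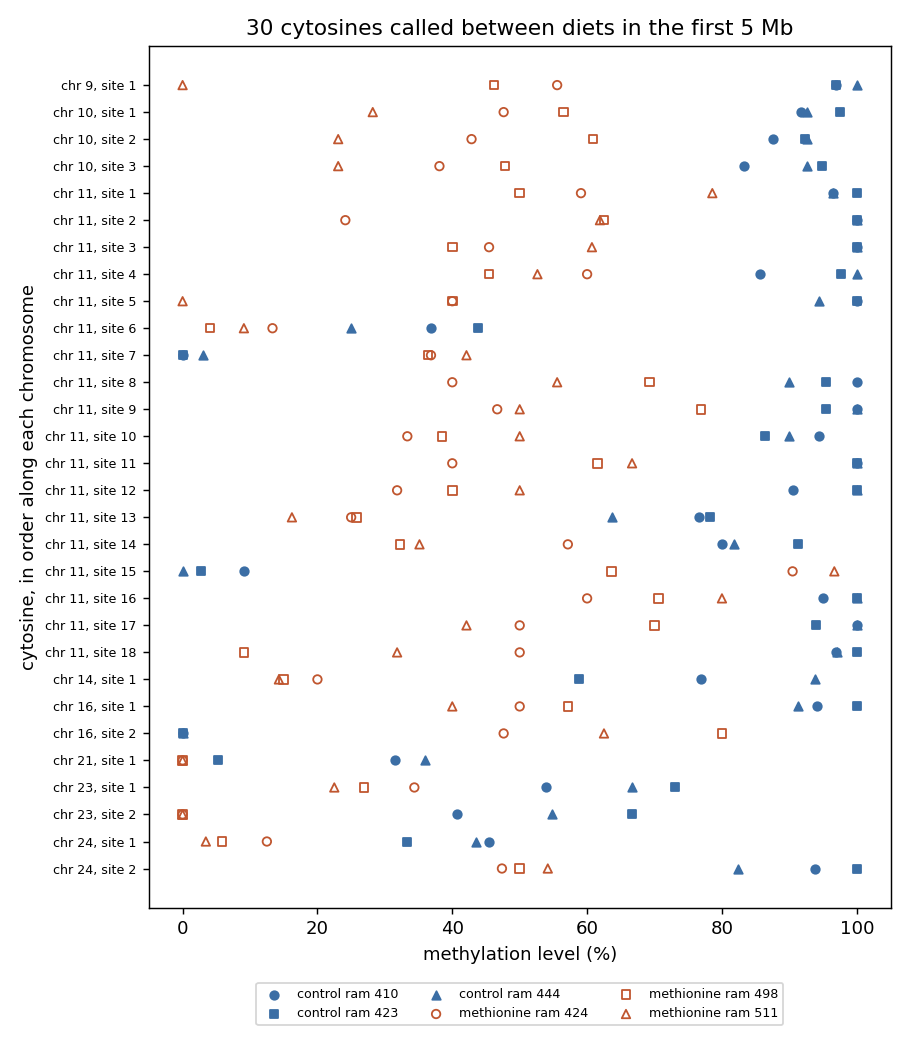
Methylation level (%) of the 30 DMCs in the first 5 Mb, 1 line per cytosine, with filled points for control rams and open points for methionine rams. The control mean is above 90% in 19 of the 27 decreases, and 18 of the 30 lines are on chromosome 11.

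In windows of 200 bp, 23 in the ends were called, 20 lower and 3 higher with methionine. Of all windows 0.0635% were called (0.0598% as decreases), against 0.0791% in the ends. Chromosome 11 held 18 of the 23, and without it 0.0193% of windows were called. Overlapping windows merged into 11 regions, 8 of them on chromosome 11. At positions 1308601 to 1308950 of chromosome 11, which held 4 DMCs, the controls had 98.1%, 94.7% and 95.0% and the methionine rams 44.4%, 69.2% and 59.3%. The merged regions off chromosome 11 were on chromosomes 14, 16 and 23. On chromosome 14, from 137501 to 137850, 15 cytosines had 50.6%, 45.9% and 56.9% in controls and 29.7%, 22.4% and 13.5% with methionine. The only increase was on chromosome 11, from 3487001 to 3487300, around the increase described above. It held 3 listed cytosines, 1 of them that DMC, and its 3 windows shared the same cytosines, so it is not a separate result. Without Ram424 the count was 177 of 2313 called over all windows, without Ram410 it was 83 of 1014, without Ram423 it was 50 of 532 and without Ram444 it was 49 of 518.

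Embryos sired by these rams were sequenced as RNA in 6 pools per diet. The control rams sired 2 pools each, while Ram424 sired 4 of the methionine pools and Ram498 and Ram511 1 each, so pools that share a sire are not independent and the methionine values lean on Ram424. In CPM (counts scaled to a common library total), PRKCA had 23.8 to 96.5 in the control pools (median 53.1) and 41.2 to 119 in the methionine pools (median 58.0). ADNP2 had 42.5 to 75.4 (median 56.0) and 62.3 to 110 (median 91.1). SLIT3 had 40.5 to 114 (median 66.9) and 43.4 to 625 (median 54.3). RGS9 and KCNJ16 had medians of 24.6 and 29.6 in controls and 22.4 and 28.1 with methionine. The pools of the diets overlapped for all 5 genes, and no test was made.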

How the data were processed

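For RRBS, the authors trimmed reads, aligned them with Bismark and Bowtie2 to Oar_rambouillet_v1.0, removed duplicates by barcode and listed cytosines that every ram covered by 10 or more reads. The deposited values are counts of methylated and unmethylated reads. For embryos, the deposited values are raw counts of reads per gene and pool (totals of 1017847 to 2398589), from which CPM was computed. The ends, gene lists and named sites were chosen with earlier results of these data known. Named were the 3 highest and 3 lowest ends, the 3 largest differences from the interior in each direction (4 were below 0, all given), the 6 largest decreases and all increases among DMCs, and merged regions. Levels were compared by exact permutation over rams. Diet was tested at each cytosine and window (200 bp, step 50 bp, at least 3 cytosines) by logistic regression with overdispersion of at least 1 and a chi-square test, without the age term of the study's model, which no label gives. Bins of 5 Mb with at least 100 cytosines were tested with limma 3.58.1 in R 4.3.3. The tests were tested on simulated data, with the criterion for recovered changes revised after a first run. With 3 rams per diet, the permutation and limma p-values measure the spread between rams only. Those of the logistic regression rest on read counts scaled by the overdispersion. It was at its floor of 1 at 14 of the 30 DMCs in the ends, where the p-value reflects read counts alone. A median coverage of 21 to 38 reads limits a level at 1 site. Rules for gene order on chromosome 11 were set after seeing the data. Promoters and sperm markers were not analysed here, and no sequence is printed.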

Additional observations from a re-analysis of the deposited data

Results flagged for a closer look

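In the embryo pools sired by methionine rams, 1 pool stood apart from the other 5 for SLIT3, at 625 CPM, and 1 for PRKCA, at 119 CPM. Chance flags about 1 in 20 groups in this way. The SLIT3 median of the 6 pools, 54.3 CPM, does not rest on that pool.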

How the results depend on the processing

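The difference of the ends from the interior kept its direction under every alternative run, from 1.80 points at 20 reads to 8.47 points by pooled reads. Leaving out 1 ram gave 4.68 to 4.86 points from the interior and -6.55 to -6.35 from the last 5 Mb, where 5 rams cannot reach p under 0.05 (exact sign-flip permutation test, p = 0.0625). By pooled reads the difference from the last 5 Mb was -0.17 points and lost its call. The diet difference of the ends was -1.23 to -0.24 points, and that of the ends-minus-interior difference -0.59 to -0.21, without 1 ram each. By pooled reads they were far larger, at -8.05 and -4.10 points (exact permutation test, p = 0.3 for each). Neither passed under any alternative. DMCs in the ends were 0 by the F test and 0 by limma on logit levels, and both called 0 over all cytosines. By limma 5392 cytosines of the ends had an unadjusted p under 0.05, of 100111 over all cytosines. The ends held 93316 of the 1850625 cytosines. Beside the calls over all cytosines, DMCs in the ends were 436 of 5905 without the overdispersion correction and 6 of 61 with at least 20 reads. They were 48 of 341 in ends of 10 Mb, 12 of 341 without chromosome 11 and 12 of 341 with it turned round. Without 1 ram they were 29 of 446 to 89 of 1424. By the F test 0 windows were called in the ends and 0 over all windows. Of the 29068 windows in the ends, 530 had an unadjusted p under 0.05 by that test. Beside the calls over all windows, called windows in the ends were 23 of 360 in the main run. They were 391 of 5591 without the overdispersion correction and 40 of 502 at q under 0.05. They were 5 of 360 without chromosome 11 and 5 of 360 with it turned round. Leaving out 1 ram gave 22 of 468 to 177 of 2313. With at least 5 cytosines per window 15 were called in the ends, and the calls over all windows were also fewer than in the main run. Ends that passed as 5-Mb bins were 1 with at least 500 cytosines (3 over all bins) and 0 to 7 without 1 ram (7 without Ram424, where 91 of 565 bins passed). The cause of these changes was not tested. The settings for chromosome 11 and for the first 0.1 Mb were chosen after seeing the data. The promoter test was not run. Rams could not be paired between diets because the rams of both diets carry different numbers.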
